A study of Mus musculus with 6 samples.

Results

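The 34 genes described here encode factors that make ribosomes, and they were followed in forestomach epithelium of control mice and of mice carrying a Sox2 transgene. They were chosen by name. A probe belonged to the group when its RefSeq accession named one of the 34 genes. Without such a match, its symbol in the array's design, current or older, was used. All 34 were found on the array with 55 probes, 11 of the genes under an older name, and all 34 were among the 20558 genes tested. Each of the 34 was represented by 1 probe, well above background for the sample's RNA on all 6 arrays and saturated on none, so that the filter on dim probes removed no gene of the group.

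Ribosome assembly starts in the nucleolus, where RNA polymerase I transcribes the precursor of the ribosomal RNAs. Small nucleolar ribonucleoproteins (snoRNPs) modify that precursor, and processing factors cut it and build it into the small and the large subunit. The pathway is active in growing and dividing cells, which in a stratified squamous epithelium lie in and near the basal layer, and many of its genes are known targets of the transcription factor MYC in other settings. SOX2 is a transcription factor of foregut progenitors and of basal cells in squamous epithelia.

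K5-CreER mice, whose Cre recombinase is driven by the keratin 5 promoter of basal cells and activated by tamoxifen, served as controls. The mutants were K5-CreER;Rosa26Sox2/Sox2 mice, with the same Cre and a Sox2 transgene at both Rosa26 alleles. Both groups received 2 doses of tamoxifen at 7 weeks of age, so that Cre activation was common to them. The mice were 12 weeks old, on a mixture of the 129/Sv and C57/BL6 strains, and RNA came from epithelial sheets. There were 3 control and 3 mutant arrays; the labels call them biological replicates and do not say whether animals were pooled, so the p-values rest on the spread among these 6 samples, which may be partly technical. On every array the sample's RNA was labelled with Cy5, and a reference RNA made from 11 cell lines of the mouse with Cy3. A value is the log2 ratio of sample to reference: 0 means the level of the reference, and a difference of 1 between groups means a 2-fold change. Of the 34 genes, 24 were below the reference on all 6 arrays, against 32.69% of all genes with a value; 2 were above it on all arrays.

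The arrays were not equally alike. Over all genes the scaled median absolute difference was 0.156 log2 units between controls 1 and 2 and 0.104 between mutants 2 and 3, against 0.326 to 0.73 for the other pairs, and over the 34 genes it was 0.0778 and 0.063 for the near-identical pairs. Controls 1 and 2 lay on 1 slide, control 3 on another and the mutants on the third, and slide cannot be told apart from genotype. Control 3 was also scanned on another day and had a median sample signal of 4.66 times background, against 11.3 to 12.4 times on the other arrays. The Sox2 probe was at 6.24 ± 0.15 log2 units in the 3 controls and at 5.82 ± 0.14 in the 3 mutants (mean ± SD), and the difference of -0.43 had an adjusted p of 0.143 (limma), above the threshold of 0.05; scaling the arrays to one spread turned it to 0.32. It is not stated whether the transgene includes the sequence of this probe, which therefore does not check the transgene. The transcript of the Rosa26 locus, Gt(ROSA)26Sor, was at 1.05 ± 0.23 in controls and lower, at -2.65 ± 0.08, in mutants (limma, adjusted p = 0.00116). All 12 squamous markers were measured, with array medians of 3.56, 3.57 and 4.17 log2 units above the reference in controls and 3.18, 3.07 and 2.83 in mutants. Those of the 15 glandular stomach markers were 3.95, 3.79 and 0.41 in controls and 2.52, 3.82 and 3.62 in mutants. The squamous values therefore do not show that the RNA came from squamous epithelium alone.

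Sequence just upstream of the genes is shown for 4 of the 34. It comes from RefSeq (GRCm38.p6), matched by symbol for 29 of the 34 genes (all but Bop1, Fbl, Npm1, Rrp12 and Rrs1). In the 250 bases before the start, on both strands, 2 motifs were searched: CACGTG, the E-box bound by MYC with MAX, and ACAATGG or its complement CCATTGT, which holds the core of the SOX motif. Each was found in 1 of the 29 genes. Both genes are shown, with the motif in capitals, and then the stretch next to the start of the 2 genes with the largest differences between groups, which held neither motif in their 250 bases.
Nop2, chr6:125131793-125131858, plus strand: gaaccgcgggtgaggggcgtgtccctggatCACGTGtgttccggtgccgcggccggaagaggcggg
Nop56, chr2:130274325-130274391, plus strand: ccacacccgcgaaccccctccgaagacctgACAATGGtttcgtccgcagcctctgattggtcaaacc
Polr1a, chr6:71908987-71909052, plus strand: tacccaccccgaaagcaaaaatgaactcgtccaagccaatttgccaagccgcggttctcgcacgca
Ncl, chr1:86359456-86359521, minus strand: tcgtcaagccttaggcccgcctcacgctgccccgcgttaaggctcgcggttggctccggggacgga

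The share of genes with CACGTG was thus 3.45% among the 29, against 9.08% of the genes tested on the arrays that had a start site in the table and 11.4% of the other ribosome biogenesis genes. For the SOX motif the share was 3.45%, against 2.42% of the genes tested. The E-box of Nop2 begins 60 bases before its start and the SOX motif of Nop56 57 bases before its start. A match is a description of the letters, not a binding site, and the absence of a match covers only these windows.

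None of the 34 genes passed the threshold of 0.05 on the adjusted p between mutants and controls, where 2.83% of all genes tested did (581 of 20558; 287, or 1.4%, higher and 294, or 1.43%, lower in mutants). The lowest adjusted p was 0.123, for Ncl, and the highest 0.98, for Nhp2 (limma, Benjamini-Hochberg). At an unadjusted p under 0.05, 6 of the 34 genes were counted (17.6%, all with the higher value in mutants: Ncl, Bysl, Nop14, Bop1, Polr1a and Wdr43), against 23.9% of all genes and 12.1% of all genes in that direction. Of the 21 alternative fits, 19 called none of the 34; array weights called 15, where 56.2% of all genes were called, and the fit without control 3 and mutant 1 called 6, where 37.6% were. The differences were small: the largest was 0.57 (Polr1a, 1.49-fold) and the most negative -0.31 (Rrs1). They lay mostly on one side of 0, however. The mutant mean was the higher in 31 of the 34 genes (91.2%), against 50.6% of all genes, and the exceptions were Rrs1, Tsr1 and Polr1c. The median difference was 0.158, against 0.00559 over all genes. For 12 genes every mutant array lay above every control array (35.3%, against 19.7% of all genes), and for 1, Rrs1, every mutant array lay below (38.2% without overlap in all, against 37.9% of all genes).

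**Figure D1:**
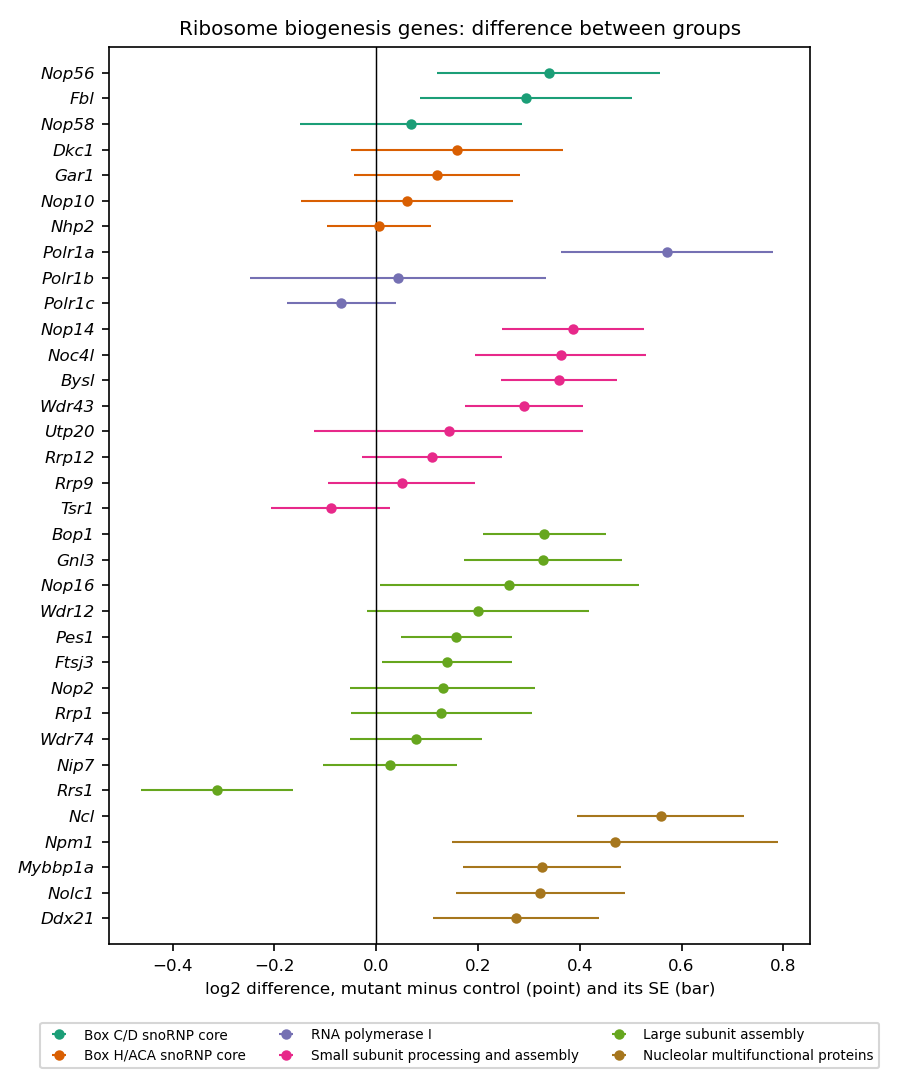
Difference in log2 ratio, mutant minus control, for each of the 34 genes (point) with its standard error from limma (bar), grouped and coloured by role. The points of 31 genes lie right of 0, from 0.0054 (Nhp2) to 0.57 (Polr1a), with Rrs1 at -0.31 farthest to the left.

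The core proteins of the box C/D snoRNPs, which guide methylation of ribosomal RNA, are Fbl, the methyltransferase fibrillarin, and the scaffold proteins Nop56 and Nop58. The log2 ratio of Nop56 was -0.68, -0.79 and -1.21 in controls 1 to 3 and -0.19, -0.78 and -0.69 in mutants 1 to 3. Mutant 1 was the highest array and control 3 the lowest, while mutants 2 and 3 fell among controls 1 and 2. The difference was 0.34 (SE 0.22; limma, adjusted p = 0.382). Nop58 had values of -0.84, -0.93 and -1.43 in controls and -0.68, -1.21 and -1.10 in mutants. Again mutant 1 was highest and control 3 lowest, with mutants 2 and 3 between control 3 and the other controls; the difference was 0.069 (SE 0.22; adjusted p = 0.868). Fbl gave 0.29 (SE 0.21; adjusted p = 0.42). Nop56 had a further probe with a difference of -0.39 (SE 0.14), opposite in sign, and the mean over both probes was -0.026.

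Dkc1, the pseudouridine synthase, forms the box H/ACA snoRNPs with Gar1, Nhp2 and Nop10; the same proteins are part of telomerase. Dkc1 had log2 ratios of -0.61, -0.38 and -1.01 in controls and -0.23, -0.67 and -0.61 in mutants, and the groups overlapped. Its difference was 0.16 (SE 0.21; limma, adjusted p = 0.669). Nhp2 was the most even of all 34 genes, at 0.37, 0.38 and 0.37 in controls and 0.38, 0.39 and 0.35 in mutants. It differed by 0.0054 (SE 0.10; adjusted p = 0.98), and its level was above the reference on every array. Gar1 gave 0.12 (SE 0.16) and Nop10 0.060 (SE 0.21). No array of either group was set apart in all 4 genes of this role, and the role's median difference was 0.090.

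Polr1a and Polr1b encode the largest subunits of RNA polymerase I, which hold its active site, and Polr1c a subunit shared with RNA polymerase III. Polr1a, whose probe the files place on chromosome 6 from 71929251 to 71929310 (mm9), had the largest difference of the 34 genes. Its log2 ratio was -0.84, -0.93 and -1.20 in controls and -0.015, -0.63 and -0.61 in mutants. All mutants lay above all controls, mutant 1 by far the highest. The difference was 0.57 (SE 0.21), a 1.49-fold change, with an unadjusted p of 0.032 and an adjusted p of 0.173 (limma). Polr1b did not follow it: it was at -0.99, -0.27 and -1.40 in controls and -0.65, -0.91 and -0.98 in mutants. Controls 2 and 3 were here the highest and the lowest arrays, so the spread within controls (SD 0.57) was far above the difference of 0.043 (SE 0.29; adjusted p = 0.942). Polr1c gave -0.069 (SE 0.11; adjusted p = 0.723).

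**Figure D2:**
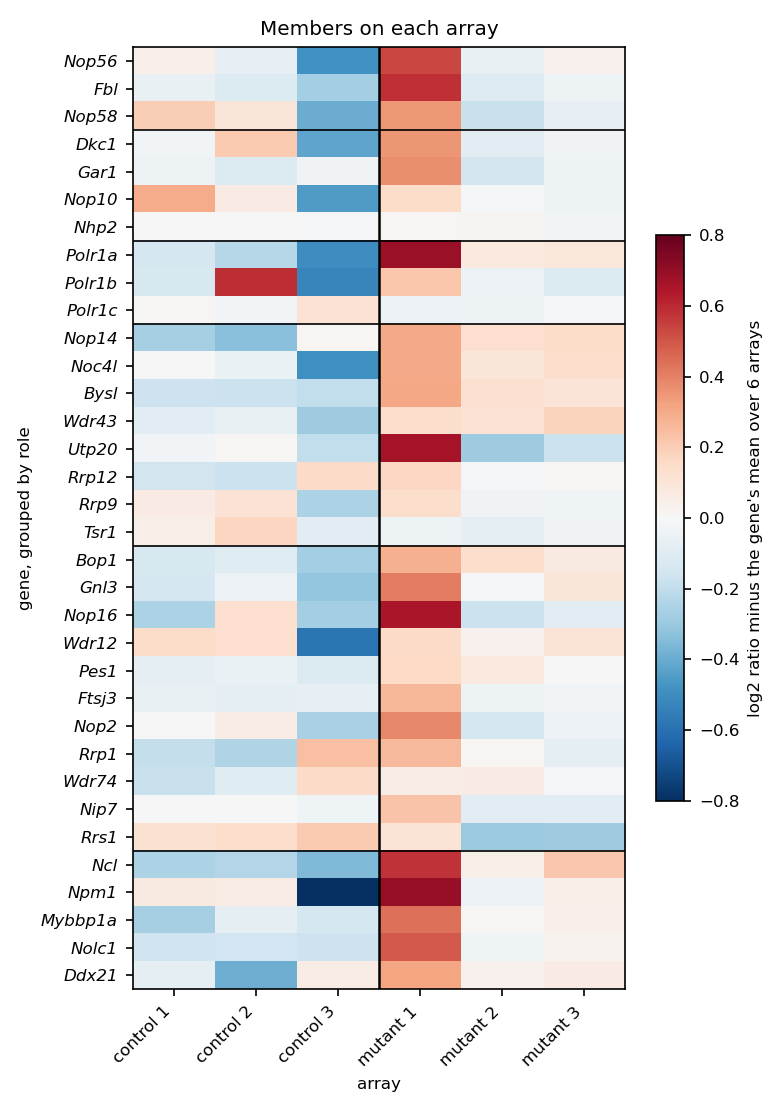
Log2 ratio of each gene on each array minus that gene's mean over the 6 arrays (colour, red above and blue below the mean, cut at 0.8), with genes grouped by role and the line between controls and mutants. The column of mutant 1 is the reddest: 29 of the 34 genes were higher there than on mutants 2 and 3. On control 3, 24 had their lowest control value, a count for which no share over all genes was taken.

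The factors of the small subunit processome and of later small subunit assembly had a median difference of 0.22 over 8 genes. The gene with the smallest p was Bysl, which encodes bystin, a late assembly factor. It was at -0.22, -0.23 and -0.25 in controls and 0.26, 0.077 and 0.051 in mutants. The controls were nearly alike, and every mutant was above them and above the reference, in a difference of 0.36 (SE 0.11; limma, unadjusted p = 0.0184, adjusted p = 0.139). Bysl had 2 further probes, with differences of 0.26 (SE 0.23) and -0.24 (SE 0.13). Rrp9, a protein of the U3 snoRNP, had the largest p of the role, with values of -0.54, -0.49 and -0.86 in controls and -0.47, -0.64 and -0.64 in mutants. The arrays of both groups were mixed, and the difference was 0.050 (SE 0.14; adjusted p = 0.855).

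Of the other small subunit factors, Nop14 and Noc4l, partners in 1 nucleolar complex, had differences of 0.39 (SE 0.14; limma, adjusted p = 0.17) and 0.36 (SE 0.17; adjusted p = 0.248). The processome component Wdr43 gave 0.29 (SE 0.12; adjusted p = 0.2). In these 3 genes the groups did not overlap. Wdr43 was also one of the 5 genes in which mutant 1 (-0.44) did not stand above mutants 2 (-0.46) and 3 (-0.40). The second probe of Nop14 gave -0.019 and that of Wdr43 -0.20. Utp20, a large scaffold protein, gave 0.14 (SE 0.26) and Rrp12, an export factor, 0.11 (SE 0.14). Tsr1, which acts in late maturation, gave -0.090 (SE 0.12; adjusted p = 0.667).

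The large subunit factors were the largest role, with 11 genes and a median difference of 0.14. Bop1, Pes1 and Wdr12 form the PeBoW complex, needed for processing of the large ribosomal RNAs. The log2 ratio of Bop1 was -0.35, -0.32 and -0.50 in controls and 0.059, -0.085 and -0.15 in mutants. The groups did not overlap and differed by 0.33 (SE 0.12; limma, unadjusted p = 0.032, adjusted p = 0.173). Pes1 gave 0.16 (SE 0.11), without overlap, but its further probe gave -0.42 (SE 0.21). Wdr12 gave 0.20 (SE 0.22), with overlap: controls 1 and 2 (-1.06 and -1.07) lay among the mutants (-1.05, -1.17 and -1.09), while control 3 (-1.79) was below every mutant. Thus the 3 partners had positive differences on their main probes, none past the threshold.

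Nip7 had the largest p of the role. It was at -0.88, -0.88 and -0.92 in controls and -0.66, -0.97 and -0.97 in mutants. Only mutant 1 was above the controls, and mutants 2 and 3 were below all of them, so the difference of 0.027 (SE 0.13; limma, adjusted p = 0.917) averaged opposite deviations. Rrs1, a factor that brings the 5S ribosomal RNA into the large subunit, was named after its values were seen, as the most negative of the 34. Its probe is placed on chromosome 1 from 9537213 to 9537272 (mm9). It was at -0.035, -0.019 and 0.051 in controls and -0.045, -0.45 and -0.44 in mutants. Here mutant 1 lay next to the controls, and mutants 2 and 3 were low. The difference was -0.31 (SE 0.15; adjusted p = 0.257).

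The remaining large subunit genes had differences of 0.077 to 0.33. The GTPase nucleostemin, Gnl3, gave 0.33 (SE 0.16; limma, adjusted p = 0.256) without overlap, and Ftsj3, a methyltransferase, 0.14 (SE 0.13) without overlap. Nop16 gave 0.26 (SE 0.25), with mutant 1 at 0.30 and mutants 2 and 3 at -0.53 and -0.45; its further probe gave -0.25. The RNA methyltransferase Nop2, whose upstream region holds the E-box shown above, gave 0.13 (SE 0.18). Rrp1 gave 0.13 (SE 0.18) and Wdr74 0.077 (SE 0.13).

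The abundant nucleolar proteins with several roles had the highest median of the 6 roles, 0.33 over 5 genes, and each of the 5 had a positive difference. Nucleolin, Ncl, which binds ribosomal DNA and RNA, had the smallest p of the 34 genes. Its probe is placed on chromosome 1 between 88247602 and 88247992 (mm9). Its log2 ratio was -1.41, -1.39 and -1.51 in controls and -0.58, -1.11 and -0.94 in mutants. All mutants were above all controls, and the difference was 0.56 (SE 0.16), a 1.47-fold change (limma, unadjusted p = 0.0133, adjusted p = 0.123). An exact permutation test of 3 arrays against 3 cannot go below a two-sided p of 0.1. Of the 3 further probes of Ncl, 2 gave 0.47 (SE 0.18) and 0.34 (SE 0.26), and 1 gave -0.28 (SE 0.20).

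Npm1, the nucleolar chaperone nucleophosmin, had the largest p of this role in spite of a difference of 0.47 (SE 0.32; limma, adjusted p = 0.403). It was at -1.35, -1.37 and -2.27 in controls and -0.73, -1.48 and -1.37 in mutants. Control 3 was the lowest array and mutant 1 the highest, and the other arrays were close together. Its second probe gave 0.35 (SE 0.27). Nolc1, a chaperone of snoRNPs, gave 0.32 (SE 0.17) and Mybbp1a 0.33 (SE 0.16), both without overlap. The helicase Ddx21 gave 0.27 (SE 0.16), and its 2 further probes 0.40 (SE 0.19) and 0.67 (SE 0.18), none past the threshold.

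Over the group as a whole, 14 genes had several probes that passed the filter. Of their 19 further probes, 10 had the sign of the main probe and 9 the opposite sign, none passed the threshold, and the values ran from -0.42 to 0.67. The reference channel was checked on its own, since a ratio also moves with it. The median difference of the reference channel was -0.0084 over the 34 genes, while that of the sample channel was 0.19, with 28 genes positive. In single genes the reference channel did move, from -0.28 (Wdr12) to 0.57 (Rrp1). For Polr1a it was -0.22, with 0.35 in the sample channel, for Npm1 -0.25 with 0.22 and for Gnl3 -0.21 with 0.12. For Nolc1 it was 0.32, with 0.64 in the sample channel, and for Mybbp1a 0.22 with 0.54.

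Much of the pattern rested on single arrays. The array medians over the 34 genes were -0.72, -0.66 and -0.85 in controls 1 to 3 and -0.27, -0.63 and -0.63 in mutants 1 to 3. Mutant 1 thus stood apart, and mutants 2 and 3 lay close to controls 1 and 2. The median of mutant 1 minus the mean of mutants 2 and 3 was 0.30 over the 34 genes, against -0.022 over all genes, and 29 of the 34 (42.22% of all genes) were higher on mutant 1 than on mutants 2 and 3. The genes with the largest such gap were Utp20 (0.89), Nop16 (0.79), Npm1 (0.69), Fbl (0.66) and Polr1a (0.61). For control 3 minus the mean of controls 1 and 2 the median was -0.18, with Npm1 (-0.91), Polr1b (-0.76), Wdr12 (-0.72) and Nop10 (-0.63) the lowest. This gap was not taken over all genes, whose array medians were 0.076, 0.078 and 0.020 in controls 1 to 3.

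Without mutant 1 the number of positive differences was 23 of 34 (52% of all genes) and the median 0.060. Without control 3 they were 25 (47.4% of all genes) and 0.17, and with neither array 17 (48.5% of all genes) and 0.0057. With neither array the fit rests on the 2 near-identical pairs, so its error is that of the pairs; it called 6 of the 34 genes, against 37.6% of all genes. The 6 were Polr1a, Nop14, Bysl and Ncl, higher in mutants by 0.26, 0.44, 0.29 and 0.37, and Rrs1 and Nop58, lower by values of -0.42 and -0.27. Weights by array agreement, which gave control 3 a weight of 0.0769 and mutant 1 0.147 against 7.63 for mutant 3, called 15 of the 34 (11 higher, 4 lower), against 56.2% of all genes. Neither share was above that of all genes. Under all 21 alternative treatments of the data 17 of the 34 genes kept their sign, among them Polr1a, Nop14, Bysl, Ncl and Bop1, positive, and Rrs1, negative. Only the mean over probes takes in further probes, so the other treatments do not bear on disagreement between probes. Nop14, Bysl and Ncl each have a further probe of negative sign (-0.019, -0.24 and -0.28).

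**Figure D3:**
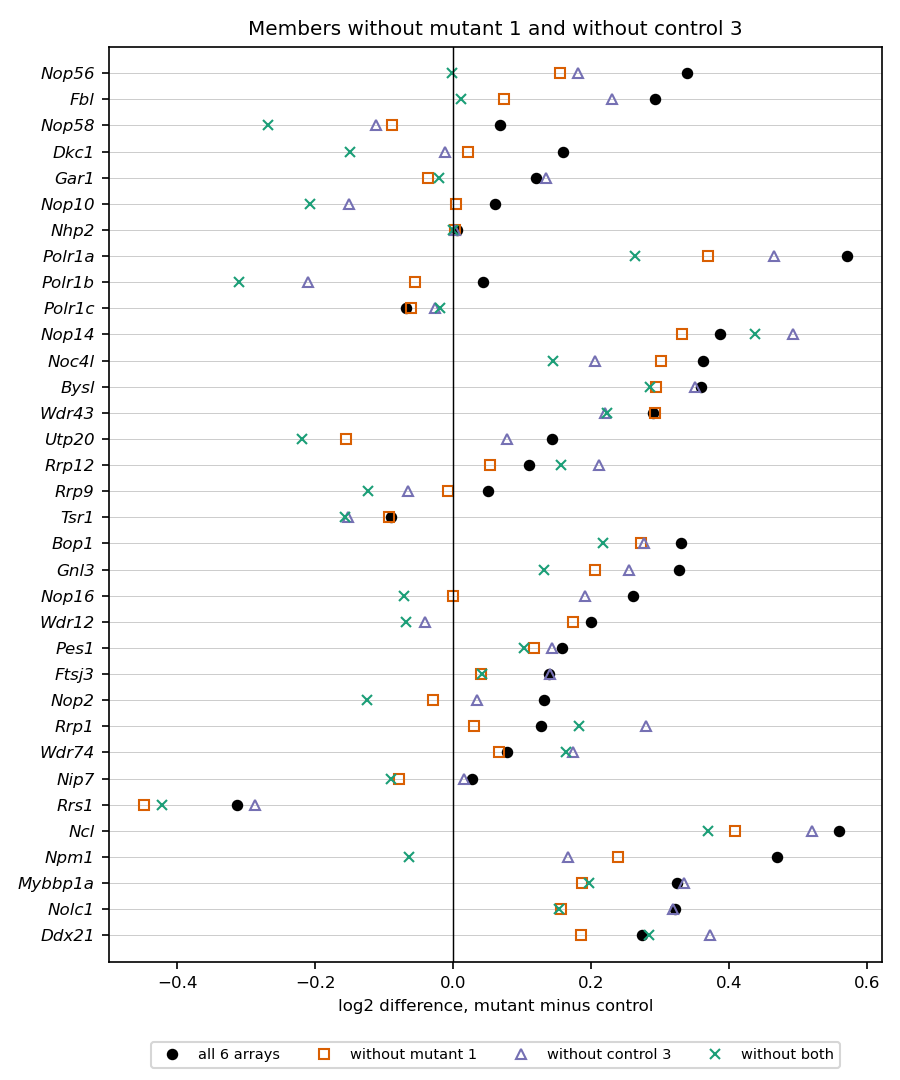
Difference in log2 ratio for each of the 34 genes with all 6 arrays (filled circles), without mutant 1 (squares), without control 3 (triangles) and without both (crosses). The median goes from 0.158 with all arrays to 0.0057 without both, while Polr1a, Nop14, Bysl and Ncl stay at 0.26 or above and Rrs1 stays negative, at -0.31 with all arrays and -0.42 without both.

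Each of the 9 markers of dividing cells was also higher on average in mutants, by a median of 1.49. Of the 9, 8 had no overlap between groups (88.9%, against 37.9% of all genes). None passed the threshold (lowest limma adjusted p = 0.0668), and 7 had an unadjusted p under 0.05 (77.8%, against 23.9% of all genes). Their array medians were -2.06, -2.03 and -3.14 in controls and -0.89, -1.32 and -1.22 in mutants, so mutant 1 was again the highest and control 3 the lowest. Their summed sample signal was 81020 to 137700 in controls and 178400 to 272000 in mutants. The leukocyte markers also differed: of 9, 7 were tested and 3 (S100a8, Cd68 and Csf1r) were called, all higher (42.9%, against 2.83% of all genes). Cd79a and Ly6g were not well above background on any array. Their summed signal was 21140 to 67090 in controls and 284400 to 555700 in mutants. The largest change by far was that of S100a8 (231-fold), which stressed squamous keratinocytes also make. The other 6 differed by 1.06-fold (Cd3e) to 2.81-fold (Cd68). S100a8 (6.27), Ptprc (-2.85), Itgam (2.04), Lyz2 (0.64) and Csf1r (-0.50) had their highest log2 ratio on mutant 1, and Cd68 and Cd3e did not. The 15 glandular stomach markers had summed signals of 15010 to 1593000 in controls and 315600 to 1246000 in mutants, with array medians of 3.95, 3.79 and 0.41 in controls and 2.52, 3.82 and 3.62 in mutants. The median was low on control 3 and, less so, on mutant 1. Atp4a (1.42), Cblif (1.41), Pgc (1.00) and Gkn1 (1.92) were low on mutant 1. By contrast, Tff1 (4.05), Tff2 (3.20), Gkn2 (5.09) and Gkn3 (3.73) were there within or above the range of mutants 2 and 3. The 10 stromal markers had summed signals of 107600 to 485900 in controls and 343100 to 455100 in mutants. Their array medians were -1.18 on control 3 and -0.95 on mutant 1, against 0.098 to 0.19 on the other arrays. The markers did not move together on mutant 1. Col1a1 (-3.19), Col3a1 (-1.40), Pecam1 (0.74) and Cdh5 (4.69) had their highest value there. Acta2 (-1.42), Des (-1.24), Dcn (-0.65) and Lum (2.15) were lower only on control 3, and Myh11 (3.44) was lowest on mutant 1. Col1a2 (-2.29) lay between the controls and the other mutants. Of the 12 squamous markers 10 had lower ratios in mutants, with a median difference of -0.49, and none was called (lowest limma adjusted p = 0.0614). An unadjusted p under 0.05 was found for 4 (33.3%, against 23.9% of all genes). Their median difference was 0.40 in the reference channel and 0.040 in the sample channel, and their summed sample signal was 2049000 to 3272000 in controls and 2061000 to 2466000 in mutants. The part of cell composition or of dividing cells in the differences of the 34 genes was not tested. For single arrays, the values without them are those given above. In bulk RNA fewer cells of a type and less RNA per cell cannot be told apart.

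The other genes of the pathway also had mostly positive differences. A list of 127 further ribosome biogenesis genes, all tested, had 90 positive differences (70.9%) and a median of 0.13, and 1 passed the threshold (0.787%, against 2.83% of all genes). Without mutant 1, 85 were positive with a median of 0.068, and without control 3 and mutant 1, 73 with a median of 0.066. That gene was Ddx52, a helicase of small subunit assembly. It was at -1.31, -1.13 and -1.55 in controls and -0.47, -0.34 and -0.27 in mutants, with mutant 1 the lowest of the mutants, and rose by 0.97 (SE 0.15; limma, adjusted p = 0.0318). The call was lost under 9 of the 21 alternatives, among them slide as a random block (adjusted p = 0.403) and leaving out mutant 2 (adjusted p = 0.148), while the difference stayed between 0.85 and 1.17 under all 21. The 4 genes next in p did not pass. They were Taf1d, a polymerase I initiation factor (1.05, adjusted p = 0.0516), Brix1, a large subunit factor (0.54, adjusted p = 0.0556), Cd3eap, a subunit of polymerase I (-0.49, adjusted p = 0.0712), and the exonuclease Xrn2 (0.77, adjusted p = 0.0894). Brix1 differed by -0.15 when its probes were averaged.

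**Figure D4:**
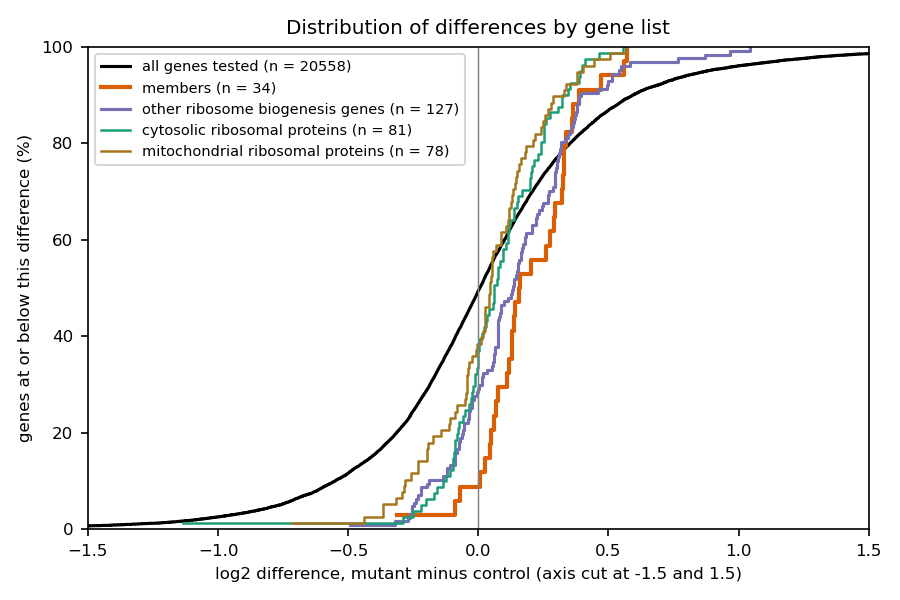
Share of genes (vertical axis, percent) at or below a given difference in log2 ratio, mutant minus control (horizontal axis, drawn from -1.5 to 1.5), for the 34 genes, 3 comparison lists and all 20558 genes tested. The curve of the 34 genes crosses 0 lowest, with 3 genes at or below 0, and its median of 0.158 lies close to the 0.131 of the 127 other ribosome biogenesis genes.

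By role, the 46 other small subunit genes had a median of 0.11, the 47 large subunit genes 0.14, the 13 exosome genes 0.22 and the 8 snoRNP assembly genes 0.27. The 13 polymerase I factors had a median of -0.072, with 8 of 13 negative. The ribosomal protein genes had smaller medians. The 81 cytosolic ones, whose proteins the pathway assembles into ribosomes, had a median of 0.062. The 78 mitochondrial ones, which belong to another ribosome, had 0.045, and both medians turned negative without control 3. None of the mitochondrial genes was called (lowest limma adjusted p = 0.0621). Of them 10 had an unadjusted p under 0.05 (12.8%, against 23.9% of all genes). Of the cytosolic genes 1 was called, Rps13, with means of -0.16 ± 0.20 (SD) in the 3 controls and -1.29 ± 0.05 in the 3 mutants (limma, adjusted p = 0.0186). Ribosomal protein genes have many near-identical copies in the genome, and the mean over the probes of Rps13 was -0.41 (adjusted p = 0.219), so this value is uncertain.

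**Figure D5:**
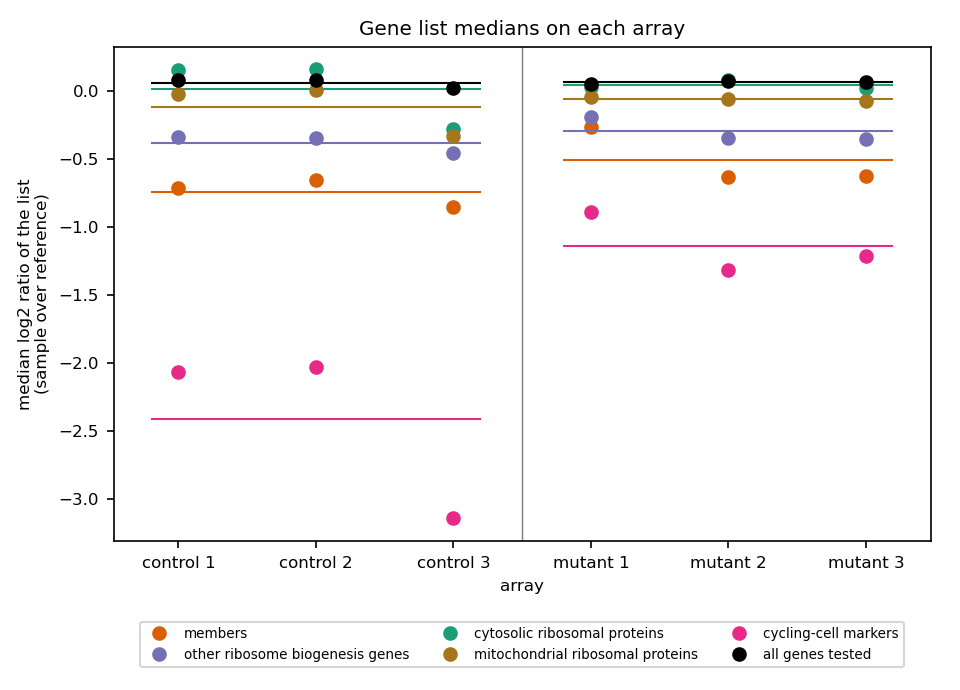
Median log2 ratio of each gene list on each array (points), with the mean of the array medians in each group (lines). The 34 genes are at -0.27 on mutant 1 and between -0.85 and -0.63 on the other 5 arrays, and the cycling-cell markers are highest on mutant 1 (-0.89) and lowest on control 3 (-3.14).

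With all 6 arrays, none of the regulators Myc, Mycn, Ubtf and Rrn3 passed the threshold. Myc was at -0.64, -0.54 and -1.37 in controls and -0.998, -1.12 and -1.12 in mutants, which lay within the range of the controls, with a difference of -0.23 (SE 0.23; limma, adjusted p = 0.576). Mycn, its relative, was at -1.03, -1.10 and -1.85 in controls and -1.86, -2.19 and -2.23 in mutants, all below the controls, mutant 1 only just. The difference was -0.77 (SE 0.25; adjusted p = 0.143). Both calls depended on control 3. Without it Myc was lower in mutants by a value of -0.49 (limma, adjusted p = 0.0494) and Mycn by -1.03 (adjusted p = 0.0265). Scan day as a block gave the same values, since it leaves control 3 without weight on the difference. The controls were then the near-identical pair, and 7.21% of all genes were called, against 2.83% with all 6 arrays. Both were also called lower without control 3 and mutant 1 (limma, adjusted p = 0.00547 and 0.000676), where 37.6% of all genes were called. The same held with array weights (limma, adjusted p = 0.000396 and 2.38e-05), where 56.2% were called. Both of these fits rest on the near-identical pairs. Ubtf, the polymerase I activator that marks ribosomal DNA, differed by -0.080 (SE 0.12; adjusted p = 0.713), and Rrn3, the initiation factor that links the polymerase to its promoter, by -0.089 (SE 0.12; adjusted p = 0.668). Of the 9 genes of the MYC network measured, 3 had positive and 6 negative differences, and none was called (lowest limma adjusted p = 0.103). An unadjusted p under 0.05 was found for 6 (66.7%, against 23.9% of all genes). The positive ones were Mycl (0.44), Mxd3 (0.71) and Mxd4 (0.41), the negative ones Myc, Mycn, Max, Mnt, Mxd1 (-0.65) and Mxi1 (-0.79). The list mixes MYC genes with genes of their antagonists (Mnt, Mxd1, Mxd3, Mxd4 and Mxi1), so the signs give no direction of MYC activity.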

How the data were processed

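The 6 RNA samples (3 control, 3 mutant) were measured on 2-colour Agilent arrays, with the sample in Cy5 per the labels. The intensity of each spot is deposited as written by the scanner software, Agilent Feature Extraction 10.5.1.1 (10.7.3.1 for control 3) per the file headers and 9.1 per the submitters' processing notes. The log10 ratio column that the software also wrote, per the file headers, was not used. A deposited table of log2 ratios, whose normalization and centring are not given in the sources used here, served as an alternative. Against the scanner files its columns ran as sample over reference (slopes 0.978 to 1.17, column medians 0.026 to 0.06). The table's mutant 1 correlated best with the scanner values of mutant 3 (r = 0.973, own file 0.886) and its mutant 3 with those of mutant 1 (r = 0.969, own 0.881). It is unknown which of them is misnumbered; mutant 1 here is that of the scanner files.

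Mean signals and local backgrounds were corrected with normexp (offset 50) and normalized by loess within arrays in limma 3.58.1 under R 4.3.3; control spots and outlier spots were left out. Spots of a probe were averaged. Probes had to be well above background in Cy5 on 3 or more of the 6 arrays, and the probe brightest on average in Cy5 stood for its gene (20558 genes). Symbols were updated through RefSeq (GRCm38.p6); the file headers give build mm9. Groups were compared with lmFit and eBayes, two-sided, Benjamini-Hochberg over all genes, threshold 0.05, with 4 residual degrees of freedom; precision is limited by the number of arrays. The scripts were tested on simulated data. The members and the lists were chosen with earlier results of these data known, so the members' common direction is a description. Every member is named; values on every array are given for the members with the smallest and the largest p of each role, and of the other biogenesis genes for the 1 called, with the 4 next in p. Alternatives covered background correction, normalization, filters, probes, blocks, weights and left-out arrays. The labels do not say that equal numbers mean paired samples, so the numbers were not treated as pairs. By the numbers of the scanner files, same-numbered arrays of the groups did not deviate together (r = 0.00468, 0.0195 and 0.126). The other numbering, with mutants 1 and 3 exchanged, was not tried, so these values do not exclude pairs. No outlier test was made, since groups of 3 arrays are too small for one.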

Additional observations from a re-analysis of the deposited data

How the results depend on the processing

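None of the 34 genes was called under 19 of the 21 alternatives (limma, adjusted p under 0.05); the lowest adjusted p among those 19 was 0.0521, for scan day as a block and, identically, without control 3. Over all 21 alternatives, 636 of the gene values kept their sign and their side of the threshold, 18 kept their sign and were newly called, and 60 changed sign, 3 of them also newly called (Nop58 in 2 fits, Polr1b in 1); 17 genes never changed sign. With the labels' replicate number as a block, 137 genes of the array were called (581 without it), none of the 34, 0 of the other biogenesis genes and 0 cytosolic ribosomal protein genes. The labels do not say that the numbers pair the samples. The members' median was 0.279 with median centring (0.0629 over all genes) and 0.291 with the near-identical pairs averaged. Without a single replicate it ran from 0.0601 to 0.248 and the number positive from 23 to 31. Genes that changed sign ranged, without a single replicate, from -0.0122 to 0.302 (Dkc1), -0.0364 to 0.224 (Gar1), -0.00281 to 0.0166 (Nhp2), -0.0791 to 0.0804 (Nip7), -0.151 to 0.223 (Nop10), -0.000585 to 0.411 (Nop16), -0.0294 to 0.233 (Nop2), -0.112 to 0.183 (Nop58), -0.211 to 0.35 (Polr1b), -0.0656 to 0.122 (Rrp9), -0.156 to 0.321 (Utp20) and -0.0405 to 0.323 (Wdr12). Calls among the other biogenesis genes ranged from 0 to 3 and among cytosolic ribosomal proteins from 0 to 2, with medians of -0.102 to 0.154 (cytosolic) and -0.0212 to 0.0786 (mitochondrial).

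Without control 3 and mutant 1 together, 6 of the 34 were called and 17 were positive; the sign changed for Nop56 (-0.00181), Nop58 (-0.268), Dkc1 (-0.15), Gar1 (-0.0206), Nhp2 (-0.000369), Nop10 (-0.208), Polr1b (-0.311), Rrp9 (-0.123), Utp20 (-0.22), Wdr12 (-0.068), Nop2 (-0.125), Nop16 (-0.0707), Nip7 (-0.0899) and Npm1 (-0.0641). That fit called 34 other biogenesis genes, 27 cytosolic (median -0.109) and 16 mitochondrial (median -0.061) ribosomal protein genes, and 7731 genes in all. Array weights called 15 of the 34, left 19 positive and called 70, 44 (median -0.0894) and 33 (median -0.0308) of the 3 lists and 11556 genes in all; the sign changed for Nop58 (-0.192), Dkc1 (-0.198), Nhp2 (-0.0141), Nop10 (-0.128), Polr1b (-0.553), Rrp9 (-0.136), Utp20 (-0.186), Wdr12 (-0.0344), Nop2 (-0.111), Nop16 (-0.164), Nip7 (-0.0847), Npm1 (-0.0106) and Rrn3 (0.0294). Both settings rest on the near-identical pairs.

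Scan day as a block, which leaves control 3 without weight on the difference, changed the sign of Nop58 (-0.112), Dkc1 (-0.0122), Nop10 (-0.151), Polr1b (-0.211), Rrp9 (-0.0656) and Wdr12 (-0.0405), called 3 other biogenesis genes and 2 cytosolic ones (median -0.102, mitochondrial -0.0212), and 1482 genes in all. Scaling to one spread changed Nop58 (-0.0531), Polr1b (-0.0675), Rrp9 (-0.0258), Nip7 (-0.0722) and Sox2 (0.318). The mean over probes changed Nop56 (-0.0264), Pes1 (-0.129) and Brix1 (-0.145), with 3 other biogenesis genes and 0 cytosolic ones called. Median centring changed Polr1c (0.0684) and Ubtf (0.00825), called 0 on either list and gave the other biogenesis genes a median of 0.233. The sample channel alone changed Polr1b (-0.0368), Rrp12 (-0.0851) and Wdr12 (-0.0818), called 0 on either list and gave medians of -0.00259 (cytosolic) and -0.00874 (mitochondrial). The scanner software's processed signals changed Nhp2 (-0.00717) and Polr1b (-0.0376). Slide as a random block called 4 genes in all and averaging the near-identical pairs 0, so that 0 on either list was called in both; no filter, and a filter on all 6 arrays, called 2 other biogenesis genes each. The causes were not tested, other than that leaving out arrays changes the number of samples. No array was left short of signal for these 34 genes, all well above background.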
